A study of Mus musculus with 11 samples.

Results

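The CD3 chain loci were examined as the peaks called on chromosome 9 from 44740000 to 44860000, the 120 kb window named for Cd3e, Cd3d and Cd3g, and on chromosome 1 from 167680000 to 167840000, the 160 kb window named for Cd247. Coordinates are of the mouse build mm9, counted from 1. The windows were chosen by gene name and position, and held 119 of the 120616 peaks of 6 peak lists. The Cd3e, Cd3d and Cd3g window held 62 of them and the Cd247 window 57.

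The lists come from chromatin immunoprecipitation followed by sequencing of sorted thymocytes that carry both CD4 and CD8, from mice 6 weeks old. Acetylated lysine 27 of histone H3 (H3K27ac), which marks active promoters and enhancers, was mapped in 2 wild-type (WT) libraries and 2 knockout (KO) libraries. In KO mice a floxed allele of Rad21, which encodes the subunit that closes the cohesin ring, was deleted by a Cre transgene under Cd4 control. Smc1a, another cohesin subunit, was mapped in 2 WT libraries, so cohesin in KO cells was not measured here. Deletion with this transgene begins at about the stage that was sorted. The series describes the control animals as littermates and labels them wild type, and which alleles or transgene they carried is not given in the sources used here for those animals.

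The T cell receptor recognises antigen but has no signalling tail of its own. It reaches the cell surface with the CD3 chains: epsilon (Cd3e) pairs with delta (Cd3d) or gamma (Cd3g), and zeta (Cd247) forms a homodimer. Their cytoplasmic tails carry tyrosine motifs that the kinase Lck phosphorylates and that then recruit the kinase Zap70. CD3 chains take part in signalling both at the pre-T cell receptor checkpoint and during selection on self peptides.

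In the RefSeq annotation of a later build, GRCm38.p6, the order of protein-coding genes along chromosome 9 is Ube4a, Cd3g, Cd3d, Cd3e, Mpzl2 and Mpzl3. Cd3g and Cd3d are transcribed away from each other, Cd3g on the minus and Cd3d on the plus strand, and Cd3e lies on the minus strand. Cd247, on the plus strand, lies between Creg1 and Pou2f1 on chromosome 1. That build is used here for names, order and promoter sequence alone. No mm9 annotation was used, so acetylated regions and Smc1a sites are given by position and were not assigned to a promoter, exon or intron of a gene, and the sorted cells were not checked against marker genes.

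The promoters of the 4 chain genes are shown because H3K27ac marks active promoters and the 4 products are made for the same complex. Each line gives the 250 bases before the RefSeq start site on the gene's own strand, and capitals mark CACCTG or its other strand CAGGTG, an E box of the kind that E proteins bind.
Cd3g: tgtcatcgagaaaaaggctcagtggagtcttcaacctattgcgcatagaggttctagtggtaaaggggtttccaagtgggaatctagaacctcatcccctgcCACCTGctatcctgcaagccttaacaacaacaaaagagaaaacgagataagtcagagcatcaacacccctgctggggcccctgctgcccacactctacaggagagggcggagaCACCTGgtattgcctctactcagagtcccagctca
Cd3d: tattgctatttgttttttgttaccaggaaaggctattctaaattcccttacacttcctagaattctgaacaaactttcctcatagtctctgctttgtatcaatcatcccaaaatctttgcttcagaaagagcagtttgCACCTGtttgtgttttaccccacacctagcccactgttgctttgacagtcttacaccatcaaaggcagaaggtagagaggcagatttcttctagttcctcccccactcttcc
Cd3e: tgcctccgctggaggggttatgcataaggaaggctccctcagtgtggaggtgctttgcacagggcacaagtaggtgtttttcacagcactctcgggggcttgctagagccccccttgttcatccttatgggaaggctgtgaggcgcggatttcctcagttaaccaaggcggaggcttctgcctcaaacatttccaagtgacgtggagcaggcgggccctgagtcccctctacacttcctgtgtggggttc
Cd247: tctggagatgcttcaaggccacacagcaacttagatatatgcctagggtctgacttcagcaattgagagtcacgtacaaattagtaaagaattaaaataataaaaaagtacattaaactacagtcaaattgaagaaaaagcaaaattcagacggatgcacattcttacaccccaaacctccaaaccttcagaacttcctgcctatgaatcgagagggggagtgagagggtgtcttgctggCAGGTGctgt
The 4 sequences lie in GRCm38.p6 at chr9:44980432-44980681 (minus strand, Cd3g), chr9:44981536-44981785 (plus strand, Cd3d), chr9:45009612-45009861 (minus strand, Cd3e) and chr1:165788431-165788680 (plus strand, Cd247). These positions cannot be set against the mm9 positions of the peaks.

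The E box was found in 3 of the 4 promoters, and in 17.2% of the 32851 promoters of the same length in the RefSeq table. Cd3g had 2 copies, whose first bases lay 148 and 35 bp before the start, Cd3d had 1 at 112 bp, and Cd247 had 1 at 10 bp. Cd3e had none in these bases. An ETS core spelled AGGAAG, searched like all the motifs on both strands, was found in Cd3d, in Cd3e (2 copies, the nearer at 17 bp) and in Cd247. It was present in 29.5% of all promoters. The TCF letters CTTTGA, present in 13.8% of all promoters, occurred in 2 copies in Cd3d. Cd3g held the letters AGATAA of GATA factors (9.99% of all promoters) and the letters GGGCGG of SP factors (32.7%). The RUNX letters TGTGGT (14.0% of all promoters) were in none of the 4 promoters, and the box spelled TATAAA (12.4%) was not either. No pair of these motifs overlapped in the 4 sequences. GC content was 57.2% in Cd3e and 51.6% in Cd3g, near the median of 52.4% over all promoters, and 41.2% in both Cd3d and Cd247. A match describes the letters and is no evidence of a bound factor.

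The H3K27ac lists held 15686 to 21973 peaks and covered 45.6 to 56.3 Mb, with WT replicate 2 the smallest list in both respects. The lists hold no reads, so depth is unknown and an absent peak shows only that none was called. The labels do not tie replicate libraries to separate mice, so p-values measure only the spread between these libraries, which may be technical. With 2 libraries against 2, the smallest p of an exact permutation test is 0.33, so no difference between genotypes could pass the usual threshold of 0.05.

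The Cd3e, Cd3d and Cd3g window was heavily acetylated in both genotypes. Called peaks covered 50685 bp in WT replicate 1, 45977 bp in WT replicate 2, 44613 bp in KO replicate 1 and 33685 bp in KO replicate 2. Both KO libraries were below both WT libraries, and the gap between the KO libraries was wider than that between KO replicate 1 and WT replicate 2. As a share of the window this was 40.3 ± 2.77% in WT and 32.6 ± 6.44% in KO libraries (SD, n = 2 each). The KO minus WT difference was -9182 bp (two-sided exact permutation test, n = 2 each, p = 0.33). It was -3718 bp without KO replicate 2 and -14646 bp without KO replicate 1. Of all 5968 stretches of 120000 bp along the genome with a peak in each of the 4 libraries, 17.9% had both WT above both KO libraries in covered length and 21.6% the reverse. Of the same stretches, 1.09% were covered as fully as this window, on the mean of the 4 libraries. The stretches start at fixed steps, those at this locus were not left out, and the window was placed around its genes.

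Overlapping or touching H3K27ac peaks of the 4 libraries were joined into union regions, of which the genome had 24430 and this window 7. Of these 7, 4 had a peak in all 4 libraries (49.6% of regions genome-wide). The other 3 had a peak in all but KO replicate 2, a pattern of 2.68% of regions genome-wide. None was WT-only, called in both WT and neither KO library (2.33% genome-wide), and none was KO-only, the reverse (2.82%). Covered length did not overlap between genotypes in 5 of the 7 regions, all with both WT libraries above both KO libraries (15.9% of all union regions, and 17.0% the other way). Of the 12129 regions called in all 4 libraries genome-wide, 22.9% had this order and 17.4% the reverse. KO replicate 2 had the least covered length in 7 of 7 regions, as in 24.9% of all union regions genome-wide, and 3 of the 7 held none of its peaks. It was the shortest in 4 of the 4 regions called in every library. Among regions called in all 4 libraries genome-wide it had the least in 44.9%, and in 68.7% of those of at least 10000 bp.

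**Figure D1:**
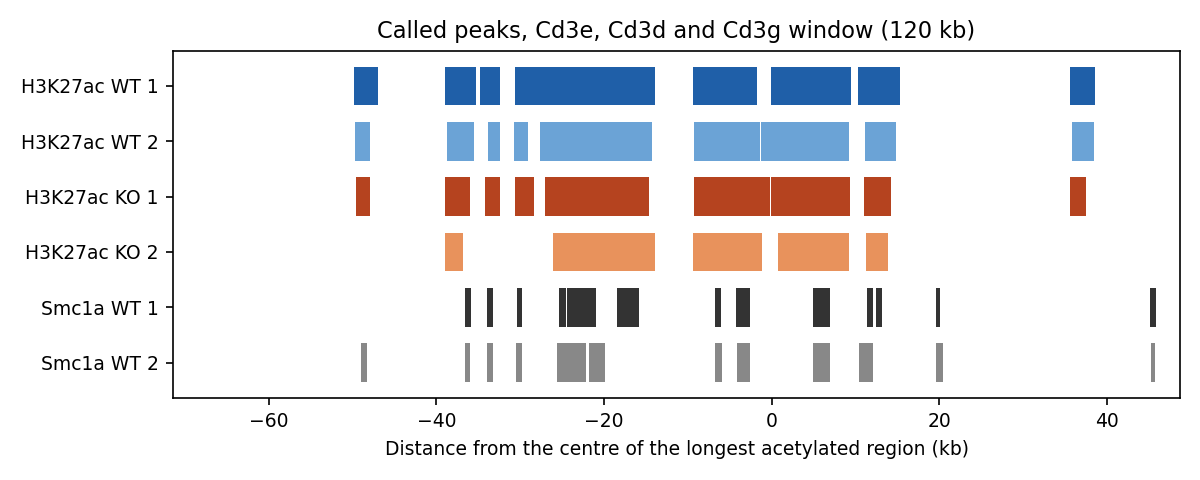
Peaks of the 4 H3K27ac and 2 Smc1a libraries across the Cd3e, Cd3d and Cd3g window, as bars along the distance in kb from the centre of the longest acetylated region. A pair of long acetylated blocks is present in each H3K27ac library, KO replicate 2 lacks 3 of the 7 acetylated regions, and the 2 rightmost Smc1a sites lie outside acetylation; gaps of under 200 bp between peaks are too narrow to see at this scale.

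The core of the window was a pair of long acetylated regions. The longer spanned 44801935 to 44820769 (18835 bp) and ranked 120 of 24430 union regions by length. Peaks covered 17154 bp of it in WT replicate 1, 18190 bp in WT replicate 2, 18406 bp in KO replicate 1 and 16671 bp in KO replicate 2. The genotypes overlapped here, with KO replicate 1 the most and KO replicate 2 the least covered. The KO minus WT difference was -133.5 bp (exact permutation test, n = 2 each, p = 1), the smallest of the 7 regions. The highest peak score in it was 3100 in each of the 4 lists, a value that 746 to 1455 peaks of each H3K27ac list shared. Scores are the authors' values as deposited and are used here to rank peaks within a list.

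Some breaks in this region fell at like places in different libraries. A gap of 75 bp in WT replicate 2, 86 bp in KO replicate 1 and 77 bp in KO replicate 2 ended at 44804512, 44804516 and 44804519. WT replicate 1 had no break there. The first Smc1a site of the region began at 44804591, just past that gap. Further along, WT replicate 1 had a gap of 1681 bp from 44809557 and KO replicate 2 had one of 1830 bp from 44810235. WT replicate 2 had a break of 174 bp from 44809914 and KO replicate 1 one of 99 bp from 44811114, and these did not overlap each other. A gap of 79 bp from 44808713 in KO replicate 2 overlapped no gap of the other libraries.

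The other long region spanned 44780660 to 44797455 (16796 bp, rank 163) and WT peaks covered 16736 and 14943 bp of it, KO peaks 14597 and 12193 bp. The WT and KO values did not overlap, with 346 bp between the nearest (KO minus WT -2444.5 bp, exact permutation test, n = 2 each, p = 0.33). The right-hand ends lay within 713 bp of each other, between 44796742 and 44797455. The left-hand side varied. WT replicate 1 covered it with 1 unbroken peak, WT replicate 2 and KO replicate 1 had gaps of 1450 and 1364 bp, and the peak of KO replicate 2 began 4603 bp inside the region. The middle, from 44785263 to 44796742 (11480 bp), was covered in all 4 libraries, and its highest score was again 3100 in each list. Among the 565 regions of at least 10000 bp called in all 4 libraries, 48.5% had both WT above both KO libraries and 7.61% the reverse, so this order was frequent among long regions.

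The short region at 44772360 to 44776116 (3757 bp), to the left of the long regions, had peaks in all 4 libraries. WT peaks covered 3715 and 3220 bp and KO peaks 2975 and 2221 bp, again without overlap between genotypes. The left-hand ends lay within 263 bp of each other, and the right-hand ends ran from 44776116 and 44775842 in WT to 44775382 and 44774580 in KO libraries. A strong Smc1a site, from 44774773 to 44775440, lay at this edge. WT acetylation ran 676 and 402 bp past the site, that of KO replicate 1 stopped 58 bp short of the site's far end, and that of KO replicate 2 stopped 192 bp before the site began. Scores did not follow covered length, at 622.87 and 121.93 in the WT lists (percentiles 69.1 and 32.8) and 853.56 and 846.73 in the KO lists (percentiles 75.6 and 74.7).

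On the other side of the long regions, peaks joined into a region from 44821666 to 44826595 (4930 bp). WT peaks covered 4930 and 3648 bp of it, KO peaks 3323 and 2600 bp. Each KO value lay below each WT value, and the spread between the WT libraries was 1282 bp. The KO minus WT difference of -1327.5 bp was about as large (exact permutation test, n = 2 each, p = 0.33). A core of 2600 bp from 44822614 to 44825213 was covered in all 4 libraries.

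The regions not called in KO replicate 2 had score percentiles of 14.6 to 70.2 in the other lists. The leftmost, 44761538 to 44764349 (2812 bp), was covered over 2812 and 1844 bp in WT replicates 1 and 2 and 1670 bp in KO replicate 1. Its best scores were 659.94, 194.16 and 248.43 (percentiles 70.2, 46.6 and 47.1 of their lists). The second, 44776565 to 44778978 (2414 bp), was covered over 2338, 1468 and 1799 bp, so KO replicate 1 lay between the WT libraries. Its scores were 99.82, 94.26 and 127.22 (percentiles 23.7, 24.1 and 28.5). The rightmost, 44846895 to 44849894 (3000 bp), began 20299 bp beyond the end of the region to its left, and the next region to its right began 12154 bp further on, outside the window. It was covered over 3000, 2664 and 1843 bp, with scores at percentiles 53.9, 39.1 and 14.6. KO replicate 1 held all 3, so the KO libraries differed from each other at these regions.

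The Cd247 window had the longest acetylated domain of the 2 windows. Peaks covered 86050 bp in WT replicate 1, 76228 bp in WT replicate 2, 81423 bp in KO replicate 1 and 71767 bp in KO replicate 2. The genotypes overlapped, with KO replicate 1 between the WT libraries. Coverage was 50.7 ± 4.34% of the window in WT and 47.9 ± 4.27% in KO libraries (SD, n = 2 each). The KO minus WT difference of -4544 bp was smaller than the spread within either genotype (exact permutation test, n = 2 each, p = 0.667). Without WT replicate 1 it was 367 bp and without KO replicate 2 it was 284 bp. In the upper 75% of each list by score it was -9337.5 bp, and with equal numbers of peaks per list -8051 bp. In both of these settings each KO library lay below each WT library (exact permutation test, n = 2 each, p = 0.33). Of all 5184 stretches of 160000 bp with a peak in each of the 4 libraries, 0.174% (9 stretches) were covered as fully, while 16.7% had both WT above both KO libraries and 22.0% the reverse. The window itself is among the 9.

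Of the 5 union regions in this window, 2 were called in all 4 libraries (49.6% genome-wide). Another 2 were called in all but WT replicate 2, a pattern of 12.0% of regions genome-wide. The fifth was called in WT replicate 1 alone (10.5% genome-wide). Covered length did not overlap between genotypes in 1 of the 5, with both WT above both KO libraries. Of all union regions, 15.9% had this order and 17.0% the reverse. None was WT-only (2.33% genome-wide) or KO-only (2.82%).

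**Figure D2:**
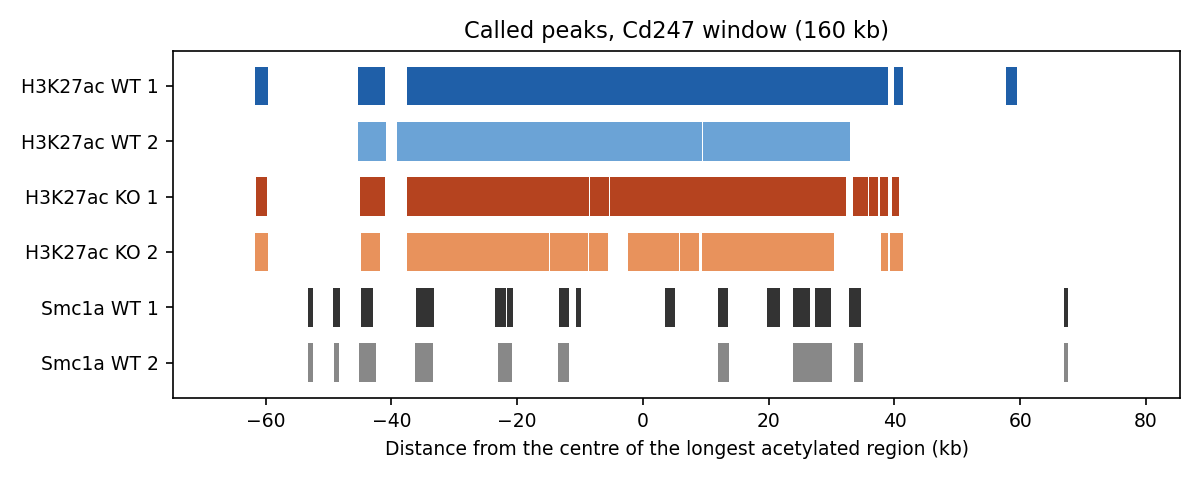
Peaks of the 4 H3K27ac and 2 Smc1a libraries across the Cd247 window, as bars along the distance in kb from the centre of the longest acetylated region. Each H3K27ac library covers most of a domain of 78068 bp, KO replicate 2 shows breaks of 3305 and 7539 bp in it, and WT replicate 2 ends 6082 bp before its right-hand end; gaps of under 200 bp are too narrow to see at this scale.

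The main domain spanned 167715612 to 167793679 (78068 bp) and was the third longest of the 24430 union regions. WT peaks covered 76473 and 71786 bp of it, and KO peaks 74628 and 64597 bp. KO replicate 1 again lay between the WT libraries, and KO replicate 2 was the lowest. The mean was 74130 ± 3314 bp in WT and 69613 ± 7093 bp in KO libraries (SD, n = 2 each), a difference of -4517 bp (exact permutation test, n = 2 each, p = 0.667). WT replicate 2 began furthest left, at 167715612, while the other 3 libraries began within 45 bp of each other, between 167717162 and 167717207.

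The domain was called in more pieces in the KO lists, with 2 and 4 peaks in WT and 6 and 8 peaks in KO libraries. Over the whole window the number of peaks was 6 and 5 in WT and 9 and 11 in KO libraries, a KO minus WT difference of 4.5 peaks (exact permutation test, n = 2 each, p = 0.33). Both KO libraries had more peaks than both WT libraries in 9.91% of the 565 long regions called in all 4 libraries, and fewer in 1.77%. Those are all regions of at least 10000 bp, and the shares were not adjusted for length. In the upper 75% of each list by score the window's difference was 1.5 peaks, and with equal numbers of peaks per list it was 2.5, both with p = 0.667 by the exact permutation test. In the Cd3e, Cd3d and Cd3g window the numbers were 8 and 10 in WT and 10 and 7 in KO libraries (difference -0.5 peaks, exact permutation test, p = 1), and 1 without KO replicate 2 or 0.5 without WT replicate 2.

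Most breaks in the domain were narrow. WT replicate 1 had a single gap of 6 bp, and the 3 gaps of WT replicate 2 were 46 to 92 bp. KO replicate 1 had 5 gaps, of which the longest was 1087 bp and the other 4 were 94 to 207 bp. KO replicate 2 had 7 gaps, and its longest were 3305 bp (167749047 to 167752351) and 7539 bp (167784998 to 167792536). WT replicate 2, KO replicate 1 and KO replicate 2 each had a narrow gap that ended between 167746049 and 167746259. The gaps of WT replicate 2 and KO replicate 1 that ended at 167749407 and 167749428 lay within the longer gap of KO replicate 2.

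The right-hand end of the domain was the part that differed most among libraries. Between 167784998 and 167786937, 1940 bp were covered in all but KO replicate 2. From 167788025 to 167790361, 2337 bp were covered in WT replicate 1 and KO replicate 1 alone. WT replicate 2 had no peak in the window past 167787597, so each genotype had a library with this end and a library largely without it. Just beyond, the region from 167793938 to 167796031 (2094 bp) was covered over 1542 bp in WT replicate 1, 1033 bp in KO replicate 1 and 2031 bp in KO replicate 2. It had no peak in WT replicate 2.

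A shorter region, 167709287 to 167713728 (4442 bp), lay 1883 bp to the left of the main domain and had peaks in all 4 libraries. WT peaks covered 4294 and 4442 bp of it, and KO peaks 3971 and 3042 bp. This was the region of the Cd247 window in which both WT libraries exceeded both KO libraries (KO minus WT -861.5 bp, exact permutation test, n = 2 each, p = 0.33). Its scores were 3100 and 1811.07 in the WT lists and 2645.33 and 1977.23 in the KO lists, at percentiles 88.9 to 96.3. A Smc1a site of 2757 bp lay under it. The region from 167692908 to 167695020 (2113 bp) had scores of 67.65 in WT replicate 1, 139.29 in KO replicate 1 and 285.63 in KO replicate 2, at percentiles 11.4, 31.2 and 50.4 of their lists. The region from 167812412 to 167814111 (1700 bp) had a score of 111.84 in WT replicate 1 (percentile 27.1).

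**Figure D3:**
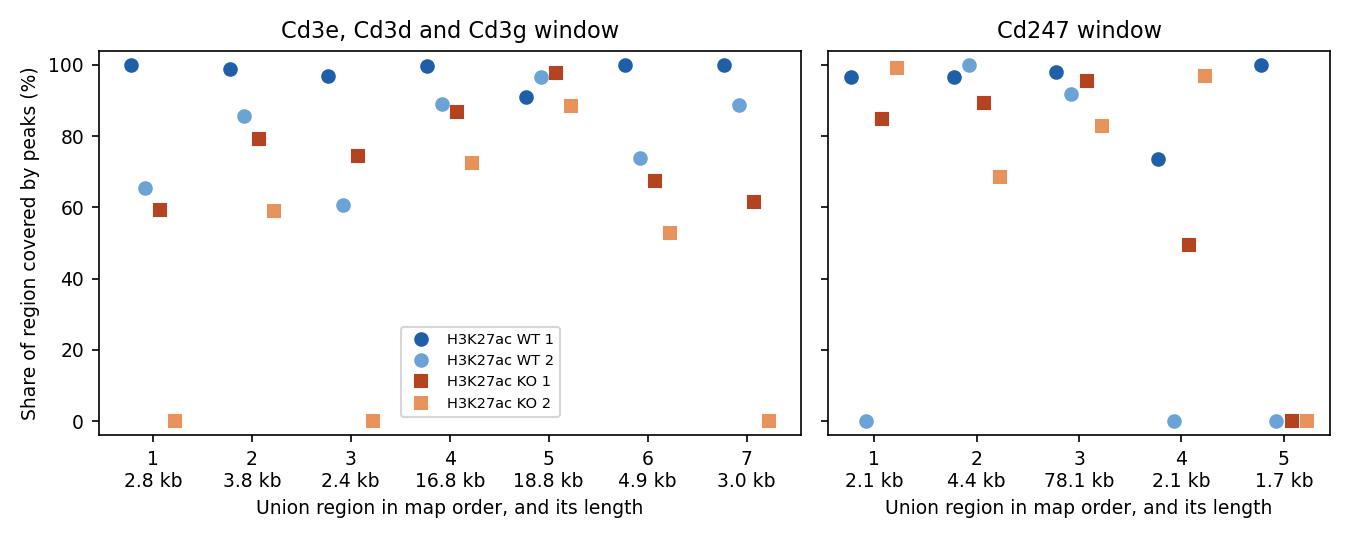
Share of each union region, in percent of its length, covered by peaks of each of the 4 H3K27ac libraries, with circles for WT and squares for KO and regions in map order. KO replicate 2 is the lowest point at each of the 7 regions of the Cd3e, Cd3d and Cd3g window and at 0 in 3 of them, while in the Cd247 window WT replicate 2 is at 0 in 3 of the 5 regions.

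Base by base, the windows were more fully shared than acetylated chromatin as a whole. Of the 52544 bp acetylated in any library in the Cd3e, Cd3d and Cd3g window, 60.5% were covered in all 4, and of the 88417 bp in the Cd247 window, 74.9% were. Genome-wide the share was 49.5% of 68.4 Mb, over regions of every length. The windows hold regions among the longest of the genome, and the shares were not adjusted for length. Bases covered in all but KO replicate 2 made up 17.8% and 8.08% of these acetylated bases, with the windows in the same order, against 5.63% genome-wide. Bases covered in both WT and neither KO library made up 5.52% and 1.15%, against 3.50%, and those covered in both KO and neither WT library 0.331% and 0.193%, against 2.89%. The windows were chosen as 2 loci, so these shares are a description and were not tested.

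Cohesin, a ring that holds chromatin loops together, often at sites bound by CTCF, was dense at both loci in WT cells. A reproducible Smc1a site is a merged region with a peak of both Smc1a replicates, and the genome had 14848. The Cd3e, Cd3d and Cd3g window held 12, and 9 of 21975 stretches of the same length (0.0410%) held as many or more. The Cd247 window held 11, and 34 of 16483 stretches of its length (0.206%) held as many or more. The median over all stretches was 0 sites for either length. All stretches were counted here, acetylated or not, and the windows were placed around their genes. Stretches at the 2 loci were not left out, so the Cd247 window is among its own 34. Neighbouring sites count separately, even where only 54 bp lie between them. The windows also held 6 sites called in 1 replicate, 5 in replicate 1 and 1 in replicate 2, and all 6 lay in acetylated regions. The Smc1a lists held 25484 peaks in replicate 1 and 17726 in replicate 2. How often such sites lie in acetylated regions genome-wide was not computed.

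Most of these sites were acetylated. In the Cd3e, Cd3d and Cd3g window 10 of 12 sites overlapped a union acetylated region, and in the Cd247 window 8 of 11 did, against 27.5% of all reproducible sites. The windows are rich in acetylated bases, and the shares were not adjusted for that. The region of 16796 bp held 4 sites, the region of 18835 bp held 3 and the Cd247 domain of 78068 bp held 7. At least 3 sites were found in 18.2% of the 565 long regions called in all 4 libraries, and at least 5 in 4.42%. Those are all regions of at least 10000 bp, and the counts were not adjusted for region length.

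The Cd247 domain held the longest Smc1a site of the windows, 6141 bp from 167778536 to 167784676. Its scores were 1100.78 and 611.10 (percentiles 97.4 and 96.2 of the Smc1a lists). Its right-hand end lay 321 bp inside the point where the acetylation of KO replicate 2 broke off. The next site, 167787439 to 167789591, lay in that break, with scores of 376.98 and 170.52. The other Smc1a sites inside the domain were weaker or of middle rank, down to 58.27 and 60.53 for the site from 167741172 to 167742949 (percentiles 8.48 and 14.7).

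In the Cd3e, Cd3d and Cd3g window the 2 strongest acetylated sites stood in the short regions on either side of the long pair. They were the site at the edge of the region of 3757 bp (44774773 to 44775440, scores 1025.79 and 679.06) and the site in the region of 4930 bp (44821809 to 44823410, scores 776.85 and 700.10). Their percentiles were 96.8 and 97.3, and 93.1 and 97.6, in the 2 lists. Sites within the long regions between them had scores of 58.57 to 402.93 in replicate 1 and 84.61 to 477.59 in replicate 2. The strongest of these, 44786946 to 44789395 (2450 bp), was followed after 54 bp by a site of 2046 bp.

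The other 5 sites called in both Smc1a libraries lay outside acetylated regions. Between the region of 4930 bp and the rightmost region of the Cd3e, Cd3d and Cd3g window, the site from 44830894 to 44831722 had the highest score of either window, 1356.98 and 851.18 (percentiles 98.9 and 98.6), and lay 4298 bp from the nearest acetylated region. The site from 44856442 to 44857170 had scores of 907.38 and 342.88. To the left of the Cd247 domain, sites from 167701385 to 167702194 and from 167705420 to 167706521 lay 6364 and 2765 bp from acetylation. Their scores were 849.50 and 809.14 in replicate 1, and 345.85 and 723.81 in replicate 2. To the right of it, the site from 167821574 to 167822185 was weaker, at 254.34 and 154.32. These 5 sites were short, with a median of 810 bp (612 to 1102 bp), and the 18 acetylated ones had a median of 1752.5 bp (668 to 6141 bp). Genome-wide the medians were 728 bp for sites outside and 1030 bp for sites inside acetylated regions. Median scores genome-wide were 292.75 outside and 197.12 inside in replicate 1, but 134.9 outside and 141.72 inside in replicate 2.

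**Figure D4:**
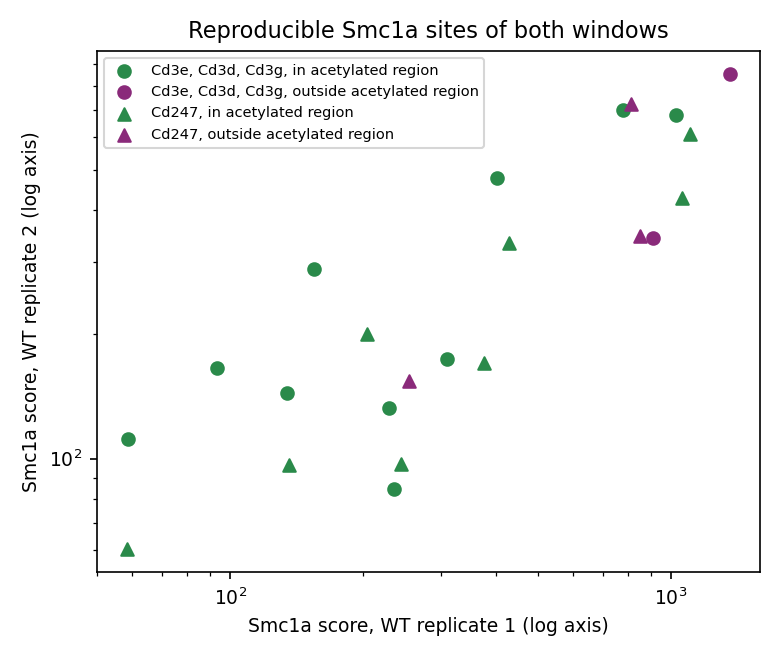
Highest Smc1a peak score of each of the 23 reproducible sites in WT replicate 1 (x axis, log scale) and WT replicate 2 (y axis, log scale), by window and by overlap with an acetylated region. Of the 5 sites outside acetylation, 4 have replicate 1 scores of 809.14 or more, and acetylated sites run from 58.27 to 1100.78. In replicate 2 the sites outside run from 154.32 to 851.18 and acetylated sites from 60.53 to 700.1.

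Acetylation at these Smc1a sites was then compared across the H3K27ac libraries. All 18 acetylated sites overlapped, by at least 1 bp, a peak of both WT libraries and of KO replicate 1. KO replicate 2 had no peak at 4 of the 18, 3 in the Cd3e, Cd3d and Cd3g window and 1 in the Cd247 window. Of the 3172 reproducible sites overlapping a peak of both WT libraries genome-wide, 8.48% had no peak of KO replicate 2 and 4.95% none of KO replicate 1. The 4 sites were 44774773 to 44775440, 44777417 to 44778116, 44780795 to 44781612 and, in the Cd247 domain, 167787439 to 167789591. The first 3 follow each other along the left-hand side of the Cd3e, Cd3d and Cd3g window, where KO replicate 2 had no H3K27ac peak from 44774581 to 44785262. KO replicate 1 had peaks at all 4, so a call at these sites was missing in 1 of the 2 KO libraries. At the site in the Cd247 domain, which is 2153 bp long, the peak of WT replicate 2 reached only 159 bp past the site's start.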

How the data were processed

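H3K27ac (2 WT and 2 KO libraries) and Smc1a (2 WT libraries) peak lists were analysed, and the 5 input libraries were not analysed here. The authors aligned reads to mm9 with Bowtie 0.12.8, per the submitters' processing notes. Each deposited list holds the MACS-named peaks of 1 library with a score, the authors' own value, from 50 upwards. Caller version, settings, inputs and filters remain not given in the sources used here.

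Covered lengths were clipped to the windows. Peaks were merged across libraries where they overlapped or touched, and an overlap of 1 bp counted. Python 3.11.15, numpy 2.4.6, pandas 2.3.3 and matplotlib 3.10.9 were used. Interval functions were tested on simulated data and gave the right answer in 200 of 200 cases. The 2 genotypes were compared by exact permutation of the 4 libraries, two-sided. Depth is unknown, so no interval is given. The windows, lists and tests were chosen with earlier results of these data known. The rule for named items was every union region and reproducible site of the windows. The pathway and marker lists needed an mm9 annotation and were not run. The 4 members matched the RefSeq promoter table (GRCm38.p6) in 4 of 4 cases. Alternatives were a stricter score, equal peak numbers, other overlap and merging rules, wider windows, scaling, a replicate block and each library left out.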

Additional observations from a re-analysis of the deposited data

How the results depend on the processing

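Of 148 alternatives over 20 results, 119 kept their direction or stayed within 1.5 times the reported count. In 4 the direction reversed, and in 25 the count moved further. The 119 include the replicate block, whose differences are fixed by construction, and counts that stayed at 0. No test could pass 0.05, so a kept direction says nothing of significance. Leaving out 1 library at a time gave KO minus WT covered lengths of -14646 to -3718 bp in the Cd3e, Cd3d and Cd3g window and -9455 to 367 bp in the Cd247 window. Peak number differences were -2 to 1 and 3.5 to 5.5. The same step gave 4 to 7 regions called in all libraries left in the Cd3e, Cd3d and Cd3g window, 0 to 3 WT-only, 0 to 4 in other sets, and 0 to 1 with both KO above both WT libraries in covered length. In the Cd247 window it gave 2 to 4 regions called in all libraries left, 0 to 1 WT-only, 0 to 3 KO-only and 0 to 3 in other sets, with 1 to 3 regions higher in WT and 0 to 3 higher in KO libraries. With a library left out, fewer lists decide each count.

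The upper 75% of each list, and equal numbers of peaks per list, each gave 1 WT-only region in the Cd3e, Cd3d and Cd3g window and 1 KO-only region in the Cd247 window. Each also gave 2 Cd247 regions with both WT above both KO libraries and 1 with the reverse. Equal numbers left 1 Cd247 region in other sets. The cause was not tested. The replicate numbers mark no stated litter or day, and deviations of same-numbered libraries correlated weakly over 12129 regions called in all 4 (r = 0.0624). With the replicate number as a block the differences were the same by construction, -9182 and -4544 bp, and -0.5 and 4.5 peaks, and 2 pairs allow no p under 0.5. Unknown depth limits every statement on a missing peak.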
